A study of Mus musculus with 12 samples.

Results

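The 32 imprinted genes described here are expressed, in tissues where imprinting is active, mainly from the allele inherited from 1 parent, and their CpG methylation was followed through the divisions of mouse B cells that had been activated with LPS in an animal. Members were listed by name, and every CpG measured in all libraries whose nearest transcript carried a member's symbol in the deposited annotation was taken. This gave 1470 CpGs of 760348, in 31 of the 32 members. Nap1l5 had 0 CpGs under its own symbol in either deposited table. A symbol names the nearest transcript, so a CpG far outside a gene can carry it. Members had from 6 CpGs (Magel2) to 140 (Kcnq1), with 129 for Dlk1, 122 for Grb10 and 110 for Gnas.

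Splenic B cells (B220+ CD43-) of naive C57/BL6J donor mice were stained with a division dye, CFSE or CTV, and transferred into uMT hosts, which lack mature B cells of their own. The labels record female mice, 8 weeks old, and the strain B6.SJL-Ptprca Pepcb/BoyJ, without saying whether that strain is the donor or the host. All 6 fractions came from spleens taken at day 3 after LPS, sorted by dye dilution from hosts 196 and 197, which gave 12 libraries of reduced representation bisulfite sequencing (RRBS). Div0 cells had not divided. The fractions Div1, Div3 and Div5 had divided 1, 3 and 5 times, and both Div8 fractions at least 8 times, with no upper limit set, either without (Div8-) or with (Div8+) the plasma cell surface protein CD138. Cells before transfer and hosts without LPS were not analysed here, so Div0 was the reference throughout, and n = 2 hosts for each value given as mean ± SD.

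Imprinted expression rests on differentially methylated regions, which carry methylation on 1 parental chromosome and not on the other. Those set in the egg or sperm serve as imprinting control regions and are kept through development by DNMT1, which copies methylation at each replication, and by zinc finger proteins such as ZFP57 and ZFP445, which recruit the TRIM28 complex to the methylated copy. In a mixture of both alleles such a region reads at an intermediate level. RRBS cuts the genome at short restriction sites and so samples mostly CpG-rich DNA. The reads were not assigned to parental alleles, so an intermediate level cannot be told apart from a mixture of methylated and unmethylated cells, and a change in level cannot be told apart from a change in the cells of a fraction.

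CpGs were sorted by their level in Div0. Of the 1470, 262 were at 35 to 65% in both Div0 libraries, the level of a control region, and are called intermediate. A further 535 were methylated (80% or more in both), 419 unmethylated (under 20% in both), and 254 were none of these. Intermediate CpGs were found in 25 members, and 248 of the 262 lay in the 16 members with at least 3. Airn, Peg3, Zim1, Sgce, Phlda2 and Ube3a had none under their own symbols. All 43 CpGs of Phlda2, a gene that restrains placental growth, were unmethylated.

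The start-site sequences of 4 members show intermediate and unmethylated start regions of these genes. They are RefSeq sequences of build GRCm38.p6, read 5′ to 3′ on the gene's strand. The first spans 250 bases before to 50 after the start, and the others only the 250 bases before it. Capitals mark CpGs that were measured. The deposited positions are on mm9, and each window was placed by its distance from the start site, which put every measured CpG on a CG. For Meg3, Phlda2 and Zim1 no shift was needed, and for Plagl1 the start site was moved by 44 bp; only 1 of the 95 to 101 placements tried for each gene put all of them on a CG. Meg3, a maternally expressed long noncoding RNA, lies at chr12:109540746-109541045 (plus strand), and the 7 measured CpGs there averaged 48.3 ± 3.5% in Div0 and 48.8 ± 2.2% in Div8+. Plagl1, a zinc finger transcription factor that slows growth, lies at chr10:13090582-13090831 (plus strand), and its 5 CpGs averaged 52.1 ± 1.8% and 45.4 ± 8.3%. Both are intermediate windows. Phlda2, at chr7:143502525-143502774 (minus strand), was unmethylated at its 9 CpGs, with 2.07 ± 1.6% in Div0 and 2.28 ± 0.50% in Div8+. Zim1, a zinc finger gene of the Peg3 cluster, at chr7:6696433-6696682 (minus strand), had 3.27 ± 2.4% and 5.43 ± 0.40% at its 5 CpGs, while 18 of its other CpGs were methylated.
Meg3: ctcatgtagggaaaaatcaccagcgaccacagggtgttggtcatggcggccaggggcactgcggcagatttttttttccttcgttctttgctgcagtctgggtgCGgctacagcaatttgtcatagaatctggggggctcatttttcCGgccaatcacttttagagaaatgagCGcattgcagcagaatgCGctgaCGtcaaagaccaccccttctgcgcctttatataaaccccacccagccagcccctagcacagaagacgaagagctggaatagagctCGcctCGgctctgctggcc
Plagl1: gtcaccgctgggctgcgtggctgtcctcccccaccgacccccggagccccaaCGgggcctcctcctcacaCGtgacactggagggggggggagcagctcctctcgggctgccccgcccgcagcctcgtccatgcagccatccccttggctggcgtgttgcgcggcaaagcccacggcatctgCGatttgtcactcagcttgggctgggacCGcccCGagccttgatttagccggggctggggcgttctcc
Phlda2: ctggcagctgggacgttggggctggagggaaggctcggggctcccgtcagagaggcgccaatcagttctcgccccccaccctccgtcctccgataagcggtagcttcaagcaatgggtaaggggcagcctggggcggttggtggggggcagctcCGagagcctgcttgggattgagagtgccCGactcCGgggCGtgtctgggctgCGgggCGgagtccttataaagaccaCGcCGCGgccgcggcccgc
Zim1: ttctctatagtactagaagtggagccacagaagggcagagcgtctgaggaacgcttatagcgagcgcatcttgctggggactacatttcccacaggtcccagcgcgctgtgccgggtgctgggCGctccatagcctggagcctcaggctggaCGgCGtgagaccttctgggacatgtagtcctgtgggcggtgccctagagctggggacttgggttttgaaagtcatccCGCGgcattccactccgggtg
The core of the ZFP57 motif, TGCCGC, was searched on both strands. It occurred in the windows of Meg3 (190 bases before the start), Plagl1 (90 before) and Zim1 (20 before), on the strand opposite to the gene each time, and not in these letters of the Phlda2 window. Of the other windows placed in this way, the intermediate one of Igf2r (42.3% in Div0) lacked the core. The unmethylated ones of Commd1 (1.18%) and Grb10 (3.00%) held it, and that of Ube3a (2.25%) did not. The core was thus present in some windows of both kinds and absent from others. Among all 32851 RefSeq promoter windows of 300 bases, 11.6% held it, and 10 of the 38 windows of the 24 members with an entry did. A match is a string of letters and not a bound site.

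Depth and cell identity touch all results. The libraries held 17969105 to 56775157 reads over the CpGs measured in all of them, with a median coverage of 20 to 66 reads per CpG and at least 10 at every CpG. The libraries of host 196 were the shallower ones in all 6 fractions. Within 1000 bp of a start site, the B cell genes Pax5, Cd79b, Cd79a and Cd22 had levels of 0, 3.85%, 7.96% and 26.9% in Div0 and of 2.18%, 2.10%, 7.99% and 3.32% in Div8+. In Div0 the 3 T cell genes with CpGs there were at 77.8 to 97.2%, Prf1 of NK cells at 96.0% and Itgam of myeloid cells at 97.6%. Among the other myeloid and erythroid genes Mpo was at 38.0%, Epor at 71.1% and Klf1 at 1.16%. The 4 plasma cell genes, Sdc1 among them, which encodes CD138, were at 1.41 to 9.02% in Div0 already. These are methylation levels and not expression.

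Intermediate CpGs of imprinted genes had nearly the same mean level in all 6 fractions, while methylated CpGs of the same genes had lower means in both Div8 fractions. The 262 intermediate CpGs averaged 48.6% and 47.4% in Div0, 44.3% and 47.4% in Div1, 49.2% and 47.1% in Div3, 46.6% and 47.7% in Div5, 45.2% and 45.96% in Div8-, 45.6% and 45.2% in Div8+ (host 196, then host 197). The 12 values lie within 5 points of each other. The difference from Div0 was -0.883 ± 1.6 points in Div5, -2.44 ± 1.4 points in Div8- and -2.66 ± 0.53 points in Div8+. Of these CpGs, 196 (74.8%) were at 35 to 65% in both Div8+ libraries as well, 7 (2.67%) were at least 20 points below Div0 and 1 at least 20 points above. No test was made on class means, because the members were chosen by name with earlier results known and 2 hosts against 2 cannot go below an exact p of 0.33.

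The 535 methylated CpGs averaged 95.3% and 95.005% in Div0, 94.5% and 94.4% in Div1, 94.7% and 94.3% in Div3, 93.8% and 93.2% in Div5, 90.9% and 90.03% in Div8-, 85.6% and 84.8% in Div8+. The Div8+ values lie below those of every other fraction in both hosts, and the Div8- values below those of Div0 to Div5. The differences from Div0 were -1.64 ± 0.26 points in Div5, -4.65 ± 0.45 points in Div8- and -9.93 ± 0.40 points in Div8+. All 29 members that have methylated CpGs had a lower mean there in Div8+ than in Div0, with differences from -3.96 points for Peg3 to -18.7 points for Airn. CpGs chosen for a high Div0 level have little room to rise, and this count was not made over all genes. Between the Div8 fractions (Div8+ minus Div8-), methylated CpGs differed by -5.28 ± 0.055 points and intermediate CpGs by -0.222 ± 0.82 points. The 419 unmethylated CpGs were at 4.19 ± 0.43% in Div0 and 4.05 ± 0.036% in Div8+.

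**Figure D1:**
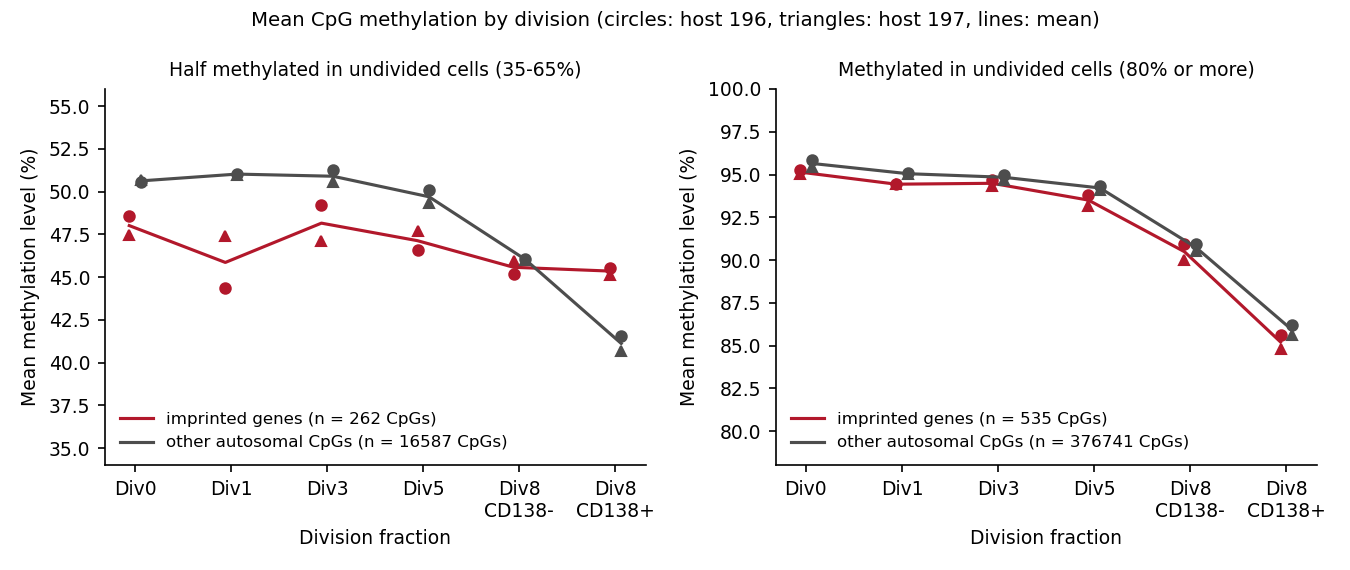
Mean methylation (percent, y axis) of intermediate and methylated CpGs in the 6 fractions (x axis), with 1 point per host. The imprinted genes are shown beside other autosomal CpGs of the same class, outside the imprinted lists. Intermediate CpGs of imprinted genes go from 48.0% in Div0 to 45.4% in Div8+, and their methylated CpGs differ by -9.93 points.

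The same values over the whole table serve as the reference. All 17114 CpGs that were intermediate in Div0 averaged 50.6 ± 0.066% in Div0 and 41.2 ± 0.59% in Div8+, a difference of -9.36 ± 0.66 points, and 47.5% of them were still at 35 to 65% in both Div8+ libraries. The 382826 methylated CpGs of the table differed by -9.71 ± 0.17 points, within 1 point of the members' value. The members' intermediate CpGs lie nearer to start sites than the rest. Of the members' intermediate CpGs, 237 (90.5%) lay within 2500 bp of a start site, against 28.2% of all intermediate CpGs. Those 237 differed by -2.35 ± 0.41 points, and 4501 autosomal intermediate CpGs of genes outside the imprinted lists that were as near a start differed by -9.70 ± 0.38 points. Median coverage was 42.5 reads for the members and 41.0 for the other autosomal intermediate CpGs.

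Sorting CpGs by their Div0 level uses the same 2 libraries as the difference, and the edges of the class show it. The 82 CpGs whose lower Div0 library was at 35 to 40% went from 43.0% to 42.1% in Div8+, and the 32 just outside, at 30 to under 35%, from 37.7% to 43.3%. At the upper edge, the 31 CpGs with a library at 60 to 65% went from 55.1% to 50.1%, and the 18 at over 65 to 70% from 61.5% to 50.2%. When the class was set in the Div1 libraries, which the contrast does not use, the 261 member CpGs chosen differed by -0.67 ± 1.6 points between Div8+ and Div0, and the 17898 of the whole table by -10.2 ± 0.25 points. The sets lay further apart under that choice than under the first.

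Per CpG, methylated and unmethylated reads were tested with a quasi-binomial model on the whole table, and a CpG was called lower or higher where the adjusted p (Benjamini-Hochberg over all 760348 CpGs) was under 0.05 and the mean level differed by at least 20 points. In Div8+ against Div0, 76 of the 1470 member CpGs (5.17%) were lower, against 6.61% of all CpGs, and 0 were higher, against 0.0271%. In Div8- against Div0, 1 member CpG was lower (0.781% of all) and 0 higher (0.0397% of all). In Div5 against Div0, 0 were lower (0.123% of all) and 0 higher (0.00552% of all). Between Div8+ and Div8-, 6 member CpGs were lower in Div8+ (0.636% of all) and 0 higher (0.00697% of all). The members' share was thus near the background in Div8+ against Div0. At an unadjusted p under 0.05, 83, 146, 353 and 145 of the 1470 member CpGs passed in either direction. The contrasts are Div5, Div8- and Div8+ against Div0 and Div8+ against Div8-, in that order. Of all 760348 CpGs 52694, 106200, 228541 and 97625 passed, a larger share each time. The limma test of log2 ratios of methylated to unmethylated reads called 0, 0, 12 and 0 member CpGs lower, against 47, 432, 15867 and 29 of all CpGs. At an unadjusted p under 0.05 it had 47, 97, 233 and 82 member CpGs, against 27510, 77487, 156290 and 52161 of all CpGs. The quasi-binomial model used the same dispersion for every CpG, so a CpG's own spread between hosts did not enter its p. The Div8+ count of that model rests on the deeper libraries. It was 9 without the Div0 library of host 197 (all CpGs 14345 in place of 50284) and 37 without the Div8+ library of host 197 (all CpGs 33130). For Div8- it was 0 without either Div0 library and 5 without the Div8- library of host 196. For Div8+ against Div8- it was 3, 1 and 2 without the Div8- library of host 196, that of host 197 and the Div8+ library of host 197.

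By class, 0 of the 262 intermediate member CpGs were called lower in Div8+ against Div0, where 2286 of all 17114 intermediate CpGs (13.4%) were. At an unadjusted p under 0.05, 10 of the 262 were lower and 1 higher, and 26.0% of all intermediate CpGs were lower. The limma test called 0 as well, with 4 at an unadjusted p under 0.05. The count was 0 also without each library in turn, and 0 of the 113 intermediate member CpGs with at least 20 reads in every library, where 13.6% of all such CpGs were called. Of the methylated member CpGs, 56 of 535 (10.5%) were lower, against 9.85% of all methylated CpGs. Of the CpGs in no class, 20 of 254 (7.87%) were lower, against 13.7%. In Div8- against Div0, 0 intermediate member CpGs were lower (1.94% of all intermediate CpGs), with 1 at an unadjusted p under 0.05. In this count the intermediate CpGs of the members lie far from those of the whole table, and the methylated CpGs lie close. The difference between the sets was not tested.

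Most intermediate CpGs sat in short stretches. With neighbours at most 500 bp apart and at least 3 CpGs of 1 member, 233 of the 262 formed 23 runs in 15 members, and the other 29 were isolated. Run levels were 40.2 to 52.4% in Div0, and 22 of the 23 (95.7%) were at 35 to 65% in Div8+, against 80.3% of 856 autosomal runs of genes outside the imprinted lists. In Div8+, 9 runs (39.1%) were lower than Div0 in both hosts, 4 were higher in both and 10 were split, and 550 of the 856 other runs (64.3%) were lower in both. The median difference was -2.31 points over the members' runs and -6.43 points over the others. The median SD between hosts within a fraction was 3.21 points for the members' runs. Run positions are given on mm9.

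**Figure D2:**
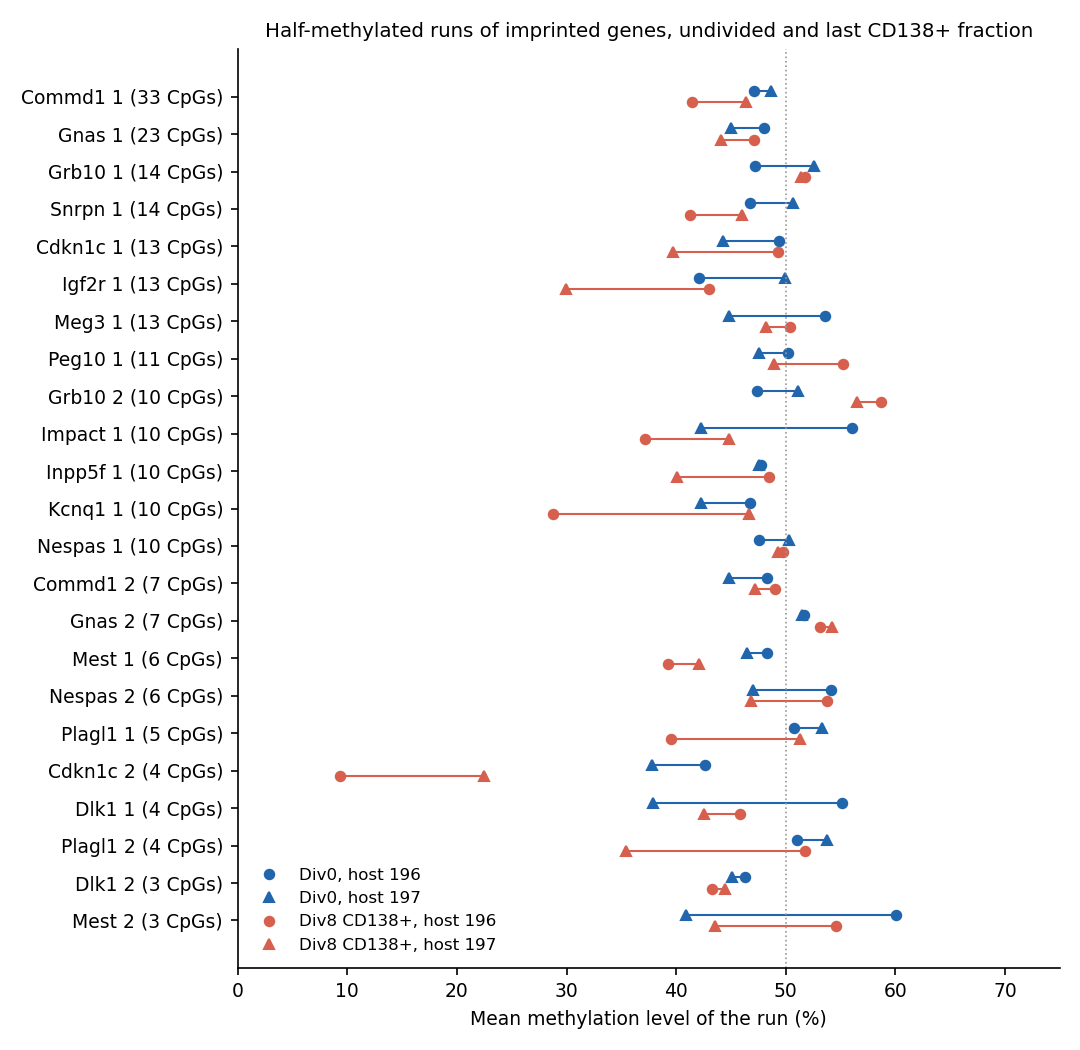
Methylation (percent) of the members' runs of intermediate CpGs in Div0 and in Div8+, with 1 point per host and the runs ordered by number of CpGs. In Div8+ all runs but the one at the start of Cdkn1c, at 15.9%, have a mean between 35 and 65%.

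Several runs belong to long noncoding RNAs or to the regions that govern them. The run at the start of Meg3 (chr12:110778529-110779507, 13 CpGs, promoter and exon) was at 53.6% and 44.9% in Div0, 53.1% and 48.6% in Div1, 50.9% and 50.8% in Div3, 52.8% and 55.9% in Div5, 44.99% and 46.3% in Div8-, 50.3% and 48.2% in Div8+. Every value was between 44.9 and 55.9%, and the difference in Div8+ was 0.0568 ± 4.7 points. The 15 methylated Meg3 CpGs within 20 kb went from 95.4% in Div0 to 85.7% in Div8+. Nespas, an antisense RNA of the Gnas locus, carried the symbol of 10 CpGs in a run (chr2:174110925-174111224, a Gnas exon by the annotation) at 48.9 ± 1.9% in Div0 and 49.5 ± 0.33% in Div8+. The 16 intermediate CpGs of Nespas were at 49.6%, 48.1%, 51.9%, 58.1%, 51.7% and 49.8% (0.255 ± 1.3 points) from Div0 through Div8+ in the order of the fractions. The Kcnq1 run (chr7:150481374-150481515, 10 CpGs) lies in an exon of Kcnq1ot1, the antisense RNA that silences the genes around the potassium channel gene Kcnq1. It was at 46.8% and 42.3% in Div0, 22.02% and 43.5% in Div1, 58.1% and 37.6% in Div3, 38.6% and 36.99% in Div5, 53.8% and 38.8% in Div8-, 28.8% and 46.6% in Div8+. The hosts crossed there, with host 196 lower and host 197 higher in Div8+ than in Div0, and the difference was -6.85 ± 16 points. H19, a noncoding RNA whose upstream control region also governs the growth factor gene Igf2, had only 3 intermediate CpGs, at 57.1%, 53.9%, 62.9%, 57.3%, 52.7% and 49.9% (-7.21 ± 1.2 points) in the order of the fractions.

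Among genes that set growth, Igf2r encodes the receptor that clears IGF2, and Airn the RNA that silences it from within an Igf2r intron. The Igf2r run (chr17:12962376-12962560, 13 CpGs, an Igf2r exon and Airn intron) was at 42.1% and 49.9% in Div0, 40.3% and 41.8% in Div1, 42.7% and 41.1% in Div3, 54.2% and 39.6% in Div5, 26.9% and 49.8% in Div8-, 43.02% and 29.98% in Div8+. The hosts spread widely, and the difference of -9.51 ± 15 points was smaller than its SD. Grb10, an adaptor that damps insulin and IGF signalling, had 2 long runs. The one at its promoter (chr11:11926506-11926858, 14 CpGs) was at 47.2% and 52.6% in Div0, 58.8% and 56.7% in Div1, 38.004% and 51.3% in Div3, 58.1% and 47.99% in Div5, 51.2% and 50.2% in Div8-, 51.8% and 51.4% in Div8+. The one in the intron (chr11:11925642-11925806, 10 CpGs) was at 47.4% and 51.1% in Div0, 52.3% and 49.9% in Div1, 49.4% and 50.6% in Div3, 47.1% and 47.6% in Div5, 48.4% and 45.5% in Div8-, 58.7% and 56.5% in Div8+. Both hosts were higher in Div8+ than in Div0 in the intronic run, by 8.36 ± 4.3 points, while 3 methylated Grb10 CpGs within 20 kb went from 94.5% to 78.9%. The 10 intermediate CpGs of Plagl1 were at 52.3%, 45.6%, 49.4%, 46.6%, 44.3% and 43.1% in the order of the fractions, and the difference of -9.21 ± 2.1 points was the most negative among the 16 members with at least 3. Dlk1, a transmembrane relative of Notch ligands, had 7 at 46.2%, 47.6%, 42.8%, 40.6%, 44.2% and 44.1% (-2.12 ± 6.4 points).

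Gnas encodes the G protein subunit that activates adenylyl cyclase. Its longest run (chr2:174124993-174125951, 23 CpGs, exon and intron) was at 47.98% and 44.97% in Div0, 34.4% and 49.6% in Div1, 50.8% and 46.8% in Div3, 55.8% and 46.3% in Div5, 44.4% and 42.6% in Div8-, 47.1% and 44.1% in Div8+. Fractions swung in both directions in host 196, and the Div8+ difference was -0.902 ± 0.018 points. The longest of all runs carried the symbol of Commd1, an adaptor of copper transport and NF-kB control, whose intron holds the retrogene Zrsr1. The run (chr11:22871999-22873161, 33 CpGs) covered the promoter and exon of Zrsr1 and was at 47.1% and 48.7% in Div0, 48.5% and 44.3% in Div1, 45.9% and 43.8% in Div3, 38.1% and 47.3% in Div5, 46.8% and 44.96% in Div8-, 41.5% and 46.4% in Div8+. Both hosts were lower in Div8+ than in Div0, and the difference was -3.97 ± 2.4 points. The Snrpn run (chr7:67149738-67150085, 14 CpGs) covered the start of Snurf, which shares a transcript with the splicing factor gene Snrpn. It was at 46.7% and 50.6% in Div0, 47.8% and 45.3% in Div1, 55.99% and 54.9% in Div3, 46.6% and 47.1% in Div5, 45.1% and 45.1% in Div8-, 41.2% and 46.05% in Div8+. Div3 was the highest fraction in both hosts, and Div8+ was below Div0 in both, with a difference of -5.03 ± 0.65 points.

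The other long runs lay in genes of other functions. Peg10, a gene derived from a retrotransposon, shares its start region with Sgce, which encodes a sarcoglycan, and that run (chr6:4697355-4697484, 11 CpGs) was at 48.9 ± 1.9% in Div0, 42.3 ± 11% in Div1, 49.9 ± 3.0% in Div3, 45.1 ± 13% in Div5, 50.2 ± 5.5% in Div8- and 52.1 ± 4.5% in Div8+. Inpp5f encodes an inositol phosphatase, and its run (chr7:135831562-135831814, 10 CpGs, promoter and intron) was at 47.6 ± 0.14% in Div0, 49.05 ± 1.3% in Div1, 52.9 ± 5.0% in Div3, 47.4 ± 1.6% in Div5, 47.7 ± 2.3% in Div8- and 44.2 ± 6.0% in Div8+. The run in Impact, an inhibitor of the kinase GCN2 (10 CpGs, intron), was at 49.2 ± 9.8% in Div0, 44.6 ± 5.2% in Div1, 43.4 ± 10% in Div3, 40.3 ± 12% in Div5, 42.1 ± 7.3% in Div8- and 40.98 ± 5.4% in Div8+. The hosts differed by over 10 points in Div0 already. Mest, a gene of the hydrolase fold family, had 9 intermediate CpGs at 48.4%, 48.7%, 49.1%, 45.4%, 44.8% and 43.5% (-4.93 ± 4.1 points) in the order of the fractions.

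Over the 16 members with at least 3 intermediate CpGs, Div0 means were 44.5 to 57.1% and Div8+ means 38.0 to 53.3%. The Div8+ difference was under 5 points in size in 10 of the 16 and positive in 5. The means not yet given for the whole gene, in the order of the fractions and with the difference between Div8+ and Div0 in brackets, were 47.004%, 44.96%, 50.4%, 50.8%, 45.3% and 47.3% (0.275 ± 0.32 points) for the 32 of Gnas and 47.7%, 46.6%, 45.9%, 43.6%, 46.4% and 44.7% (-2.996 ± 2.1 points) for the 40 of Commd1. Grb10 (26) was at 49.5%, 54.2%, 47.3%, 50.4%, 49.3% and 53.3% (3.78 ± 4.4 points), Snrpn (16) at 49.1%, 48.2%, 55.3%, 47.2%, 45.7% and 44.8% (-4.24 ± 1.1 points) and Igf2r (15) at 45.4%, 41.6%, 43.5%, 47.3%, 39.9% and 39.1% (-6.31 ± 13 points). In these genes no fraction was lowest throughout. Meg3 (13) was at 49.2%, 50.9%, 50.8%, 54.4%, 45.6% and 49.3% (0.0568 ± 4.7 points), Peg10 (11) at 48.9%, 42.3%, 49.9%, 45.1%, 50.2% and 52.1% (3.17 ± 2.6 points) and Inpp5f (10) at 47.6%, 49.05%, 52.9%, 47.4%, 47.7% and 44.2% (-3.40 ± 5.8 points). Kcnq1 (11) was at 44.5%, 33.7%, 47.7%, 38.7%, 45.4% and 38.7% (-5.80 ± 16 points) and Impact (11) at 48.6%, 43.6%, 43.4%, 40.5%, 42.3% and 40.97% (-7.62 ± 15 points). Cdkn1c (18) was at 45.8%, 37.2%, 41.1%, 39.1%, 35.7% and 37.96% (-7.80 ± 0.76 points) and is described next. In 16 of the 17 runs with at least 3 methylated CpGs of the same gene within 20 kb, those neighbours had the more negative difference, with a median of -9.65 points against -1.42 for the runs. Both runs of Gnas, Grb10, Nespas, Cdkn1c and Mest have the same neighbours, so the 17 comparisons are not independent. The neighbours also started from higher levels and so had further to fall.

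The run at the start of Cdkn1c was the exception among the 23. Cdkn1c encodes p57, an inhibitor of cyclin-dependent kinases, and had 2 runs. The longer one (chr7:150644972-150645306, 13 CpGs, exon and intron) was at 46.8 ± 3.6% in Div0, 35.6 ± 2.4% in Div1, 41.8 ± 0.33% in Div3, 37.8 ± 6.6% in Div5, 36.8 ± 1.7% in Div8- and 44.5 ± 6.8% in Div8+. The short run (chr7:150646881-150647080, 4 CpGs, promoter and exon) was at 42.6% and 37.8% in Div0, 38.8% and 37.6% in Div1, 29.4% and 42.5% in Div3, 29.9% and 50.1% in Div5, 33.6% and 29.1% in Div8-, 9.33% and 22.5% in Div8+. Both Div8+ values lie below every other value of the run, and the difference was -24.3 ± 13 points. All 10 covered CpGs around that start, a set chosen after these values were seen, were lower in Div8+ than in Div0 in both hosts, with differences of -24.8 to -10.5 points. Their mean was 35.7% and 34.2% in Div0, 33.1% and 35.5% in Div1, 29.6% and 36.4% in Div3, 32.7% and 42.5% in Div5, 31.1% and 25.97% in Div8-, 11.98% and 20.5% in Div8+. Per CpG in the quasi-binomial model 6 of the 10 had an unadjusted p under 0.05, but the lowest adjusted p (Benjamini-Hochberg) was 0.0598, so none was called. In host 196 these CpGs had 17 to 26 reads in Div0 and 18 to 21 in Div8+. Of the 7 intermediate member CpGs at least 20 points lower in Div8+, 4 lay here, and the others in Plagl1 (chr10:12837130, 53.6% to 30.04%, adjusted p = 0.0573 in the same model), Rasgrf1 (51.2% to 29.2%, adjusted p = 0.238 in that model) and Impact.

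The 76 member CpGs that were lower in Div8+ than in Div0 lay mostly far from start sites. They fell in 22 of the 31 members. Kcnq1 held 17, Dlk1 and Grb10 6 each, Gnas, Plagl1, Rasgrf1 and Snrpn 5 each, Airn 4, and Dcn, Igf2 and Usp29 3 each. Meg3, Sgce and Ube3a had 2 each, and Ascl2, Commd1, H19, Inpp5f, Nespas, Peg10, Slc22a18 and Zim1 1 each. The median level over the 76 was 91.9% in Div0, 81.4% in Div8- and 65.1% in Div8+. By the deposited annotation 35 were intergenic, 34 intronic, 4 in a promoter and 3 in an exon. Only 6 (7.89%) were within 2500 bp of a start site, against 55.6% of all member CpGs. The median distance was 26680 bp against 1698.5. All member CpGs include the 419 unmethylated ones, whose Div0 level is too low for a lower call, and 85.9% of these lay within 2500 bp. Of the 535 methylated CpGs, which held 56 of the 76, 13.8% did. The contrast with 55.6% therefore mixes distance with Div0 level, and distance was not tested at a like level. The 4 promoter CpGs, named here after their values were seen, were those at chr2:174151918 and chr2:174151924 in Gnas, chr17:13047720 in Airn (100% in Div0, 75% in Div8+) and chr12:110778484 in Meg3 (89.2% and 66.2%). Within 500 bp of an intermediate member CpG lay 4 of the 76. The Meg3 promoter CpG is among them, beside the run at the start of Meg3. The Gnas CpG at chr2:174151924 was at 37.6% in Div0, 39.2% in Div8- and 12% in Div8+. It was 1 of the 6 called lower in Div8+ than in Div8- (adjusted p = 0.0256 in the quasi-binomial model), and the others were in Kcnq1 (3), Plagl1 and Grb10. The exon CpGs lay in Plagl1, Zim1 (chr7:6630789) and Meg3 (chr12:110787998). The CpG that was lower in Div8- than in Div0 lay in a Gnas intron (chr2:174161812), at 93.1% in Div0, 51.2% in Div8- and 63.02% in Div8+ (adjusted p = 0.0199 in the quasi-binomial model for Div8-).

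The 5 CpGs with the largest differences show the range of these places. A CpG 26716 bp before the start of Grb10 (chr11:11964140, intergenic) was at 92% and 84.6% in Div0, 81.2% and 81.1% in Div1, 84.1% and 79.1% in Div3, 80.95% and 83.1% in Div5, 50% and 58.3% in Div8-, 40% and 52.2% in Div8+, with 10 reads in each Div8 library of host 196 and an adjusted p of 0.000172 in the quasi-binomial model. Both Div8 fractions lie below all others there. A CpG 100433 bp before Dlk1 (chr12:110590599, intergenic) was at 91.7% and 78% in Div0, 60% and 69.4% in Div1, 70.8% and 68.6% in Div3, 65% and 70.3% in Div5, 61.5% and 57.6% in Div8-, 36.4% and 50% in Div8+, with an adjusted p of 0.00223 in that model. Its level in Div1 was already below Div0 in both hosts. A CpG 1496 bp before a Gnas start (chr2:174151918, promoter) was at 50% and 70.7% in Div0, 71.4% and 62.1% in Div1, 61.4% and 70% in Div3, 36.4% and 68% in Div5, 40% and 53.8% in Div8-, 7.69% and 34.5% in Div8+, with an adjusted p of 0.0043 in that model. This CpG was intermediate in host 196 only. A CpG in a Plagl1 exon (chr10:12833971, 22389 bp after the start) was at 93.3% and 94.7% in Div0, 92.9% and 96.4% in Div1, 95.7% and 95.7% in Div3, 76.9% and 95.3% in Div5, 91.7% and 90% in Div8-, 50% and 60% in Div8+, with an adjusted p of 0.00024 in that model. It was lower in Div8+ than in Div8- too, with a difference of -35.8 points (adjusted p = 0.0383 in that model). A CpG beyond the other end of Grb10 (chr11:11827016, intergenic, 28868 bp from the nearest start site, which is that of another gene) was at 100% and 98.2% in Div0, 100% and 96.6% in Div1, 95.9% and 89.6% in Div3, 100% and 94.3% in Div5, 62.5% and 93.9% in Div8-, 54.5% and 66.7% in Div8+, with an adjusted p of 3.7e-06 in that model. The last was called under all alternatives run for it. Without the Div0 library of host 197 the calls in Gnas, Dlk1 and Plagl1 were lost (adjusted p = 0.364, 0.0904 and 0.131 in the same model), and without the Div8+ library of host 197 that at chr11:11964140 (adjusted p = 0.0521). With limma on log2 ratios the CpGs in Dlk1 and Gnas were not called (adjusted p = 0.0524 and 0.0948).

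Averaged over all CpGs of a gene, members differed by less than at the single CpGs above. A gene was called lower in the limma test of mean levels at an adjusted p (Benjamini-Hochberg over 16816 genes) under 0.05 and at least 10 points. In Div8+ against Div0, 3 of the 31 members were lower, against 16.0% of all genes. In Div5 and Div8- against Div0 and in Div8+ against Div8-, 0 members were lower, against 0.101%, 1.34% and 1.94% of all genes. At an unadjusted limma p under 0.05 there were 3, 11 and 16 of the 31 members, and 1971, 9901 and 11120 of all 16816 genes. The limma test called 0 members higher in any of these contrasts. Without the size limit, 21 of the 31 members had an adjusted p under 0.05 by limma and a negative difference in Div8+ (67.7%, against 83.7% of all genes). A negative difference of any size was found in 30 of the 31 members and in 16352 of all 16816 genes, a like share. The median difference was -4.49 points for members and -5.80 for all genes.

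Airn, Plagl1 and Dcn were the 3 members called. Airn (15 CpGs, chr17) was at 86.8% and 82.9% in Div0, 88.3% and 85.7% in Div1, 84.7% and 84.9% in Div3, 81.4% and 82.96% in Div5, 87.1% and 74.7% in Div8-, 69.2% and 73.8% in Div8+, and the difference between Div8+ and Div0 was -13.4 points (SE 3.33, adjusted p = 0.00437 by limma). Both Div8+ values lie below all others. Of its CpGs 12 were methylated in Div0, and these went from 96.5% to 77.8%. Plagl1 (37 CpGs, chr10) was at 78.1% and 79.4% in Div0, 75.9% and 77.3% in Div1, 76.3% and 76.5% in Div3, 75.7% and 76.6% in Div5, 72.8% and 73.2% in Div8-, 67.8% and 65.2% in Div8+, a difference of -12.2 points (SE 0.935, adjusted p = 4.77e-06 by limma). Dcn, which encodes the matrix proteoglycan decorin and is imprinted in placenta (40 CpGs, chr10), was at 91.5% and 91.98% in Div0, 91.8% and 92.7% in Div1, 91.6% and 92.01% in Div3, 90.7% and 90.1% in Div5, 85.1% and 87.6% in Div8-, 79.5% and 81.4% in Div8+, a difference of -11.3 points (SE 0.929, adjusted p = 6.47e-06 by limma). In Plagl1 and Dcn both Div8- values already lie below those of Div0 to Div5. Sgce (-9.33 points, SE 1.26), H19 (-8.87 points, SE 1.76) and Kcnq1 (-8.00 points, SE 1.04) followed below the size limit. Igf2r was the 1 member with a positive difference, of 2.75 points (SE 3.76, adjusted p = 0.508 by limma). Which genes passed depended on the CpGs taken. With CpGs within 50 kb of a start site only, Airn and Plagl1 were called. With those within 5 kb it was Slc22a18, 1 of 28 members. With reads summed per gene Airn, Dcn, H19 and Zim1 were called. With at least 20 reads in every library Dcn, H19 and Ube3a were called, Plagl1 had a difference of -8.35 points, and Airn had too few CpGs to be tested. Of all genes, 2594 of 16505 were called within 50 kb and 1036 of 13227 within 5 kb. With summed reads 3535 of 16816 were, and with at least 20 reads 1352 of 11776. Without the Div0 library of host 197, 5 members were called.

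**Figure D3:**
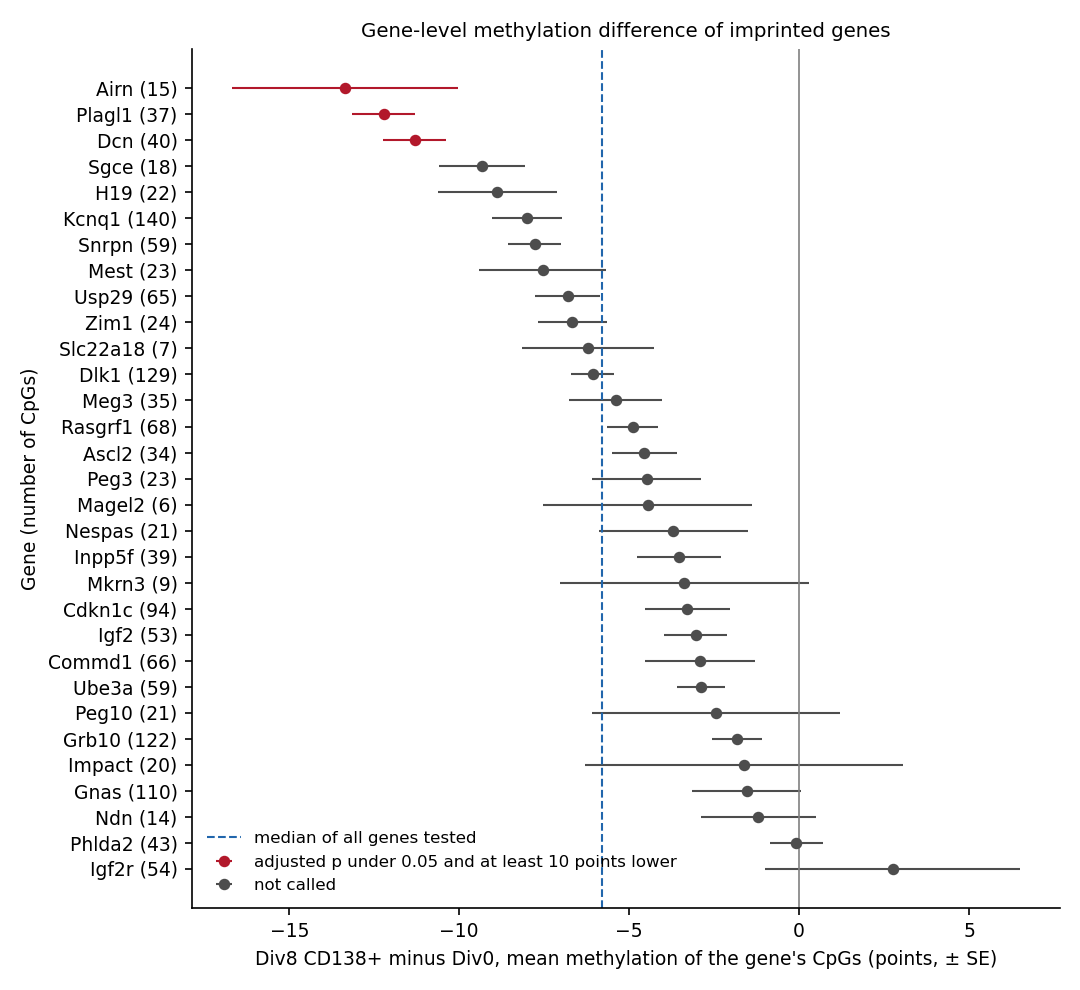
Difference between Div8+ and Div0 in mean methylation over all CpGs of each member (points, ± SE). The 3 members called lower in Div8+ are Airn, Plagl1 and Dcn, and a dashed line marks the median of all genes tested, at -5.80 points.

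The remaining members had few or no intermediate CpGs. In the Prader-Willi and Angelman cluster, Snrpn (59 CpGs) sits with Ndn (14), Magel2 (6) and Mkrn3 (9), genes of the MAGE and makorin families, and with the ubiquitin ligase gene Ube3a (59). The methylated CpGs of Ndn and Magel2 went from 97.4% to 93.1% and from 93.7% to 89.2% between Div0 and Div8+, and those of Mkrn3 from 89.1% to 83.9%. In the Peg3 cluster, Peg3 (23 CpGs, 22 of them methylated) went from 95.9% to 91.9% at its methylated CpGs, Usp29 (65), a ubiquitin protease gene, from 95.2% to 88.3%, and Zim1 (24) from 95.5% to 87.4%. On distal chr7, Igf2 (53 CpGs) went from 92.2% to 80.3% at 12 methylated CpGs, and the transcription factor gene Ascl2 (34) from 93.5% to 80.5% at 8. Slc22a18, a transporter gene, had 7 CpGs in all. Rasgrf1, an exchange factor for Ras, had 68, and its 23 methylated ones went from 94.5% to 83.4%.

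Further lists give the surroundings. Of 54 other imprinted genes, 40 could be tested and 9 (22.5%) were lower in Div8+ than in Div0 in the limma test, against the 16.0% of all genes, with a median of -6.72 points. Gatm, a creatine synthesis enzyme, went from 93.0% to 75.9%, and Slc22a3, an organic cation transporter next to Igf2r, from 91.2% to 76.6%. Ddc, which decarboxylates aromatic amino acids and neighbours Grb10, went from 93.4% to 79.5%, and Asb4 from 71.1% to 58.4%. The 108 intermediate CpGs of that list differed by -2.83 ± 0.97 points, and 3 (2.78%) were called lower, against 13.4% of all intermediate CpGs. Within it Blcap (26 CpGs) went from 48.2% to 49.1%, Trappc9 (17) from 49.2% to 49.9%, Zdbf2 (15) from 50.8% to 54.6% and Cdh15 (13) from 55.4% to 53.9%, while Slc38a4 (10) went from 51.6% to 43.6% and Peg12 (6) from 44.2% to 33.9%. Among 22 writers, erasers and keepers of methylation, such as Dnmt1, Uhrf1, Zfp57 and Trim28, limma called 0 lower and 0 higher in Div8+. That was at the 10 point limit, where 16.0% of all genes were lower and 0 higher. An adjusted p under 0.05 by limma with a negative difference was found for 18 of them (81.8%), near the 83.7% of all genes. Their median was -4.40 points, against -5.80 points over all genes.

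Nap1l5 is an intronless gene inside an intron of Herc3, and the deposited annotation placed 4 intermediate CpGs with the symbol Herc3 in the exon of Nap1l5 (chr6:58856670-58856752). Those 4, which are not among the members' CpGs, were at 56.97 ± 0.13% in Div0, 54.8 ± 7.2% in Div1, 64.2 ± 7.1% in Div3, 54.9 ± 0.96% in Div5, 56.999 ± 8.3% in Div8- and 58.4 ± 8.7% in Div8+. The hosts lay further apart in Div1, Div3 and both Div8 fractions than in Div0, and none of the 4 was called lower in Div8+ by the quasi-binomial model.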

How the data were processed

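Per the submitters' processing notes, the bisulfite reads were aligned to mm9 with Bismark and Bowtie2, whose versions were not given in the sources used here. Per the labels' protocols, 20 ng of DNA was cut with MspI and TaqI, amplified for 10 to 15 cycles without molecular identifiers and read as 50 bp single ends, so reads are not independent molecules and intervals of depth cover counting error only. The deposited tables give, per CpG and library, the counts of methylated and of unmethylated reads, the methylation level as a fraction, and the nearest transcript, its distance and the promoter, exon or intron there. One table holds CpGs with at least 10 reads in all 12 libraries and was the one tested. The other holds CpGs covered less evenly and was used only for values with at least 5 reads in every library.

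One B cell marker is not reported here. Levels are methylated reads over total reads as a percent, averaged over CpGs. Read counts were fitted per CpG with a quasi-binomial model of the 6 fractions over all 12 libraries, with the dispersion moderated by squeezeVar of limma 3.58.1 (R 4.3.3) and not below 1. The moderation was complete (infinite prior degrees of freedom) and gave every CpG the same dispersion, 1.16. A CpG's own spread between hosts therefore did not enter its p-value. Gene means (at least 5 CpGs) were tested with limma, and p-values adjusted by the Benjamini-Hochberg method over the whole table. Both steps were tested on simulated data. Differences of class and run means were taken within each host and have no test. The members and lists were chosen with earlier results of these data known. Values in every fraction are given for members called in any contrast, for members with at least 3 intermediate CpGs and for the 10 longest runs, and the 5 called CpGs with the largest difference are named. Libraries with 1 host number came from the same animal, and the labels do not say whether donor cells were pooled. Over 83552 CpGs the deviations of same-host libraries from their fraction means correlated by -0.00522 to 0.0121. Deviations at single CpGs hold much counting error, so a small correlation cannot show that sharing a host has no effect. Alternatives were limma on log2 ratios, the host as a block, other size limits, at least 20 reads, other class limits, summed reads, distance windows and leaving out each library. After seeing the data, 3 more were added, namely intermediate CpGs in runs only, without Cdkn1c, and the less evenly covered CpGs. No mm9 genome was used here, and RefSeq promoter sequences of GRCm38.p6 were matched by distance from the start site.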

Additional observations from a re-analysis of the deposited data

How the results depend on the processing

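Over all alternatives run, 319 values of the comparisons stayed close to the main value, 45 moved and no called value changed sign. Close means within the SD over hosts for class means, and within a set ratio for counts. Many of the 319 could hardly move, because the library left out was not in the contrast or both counts were 0. The tally is therefore no measure of robustness. Of the values of single genes and CpGs named, 116 kept their call and 11 lost it. Setting the class in the Div1 libraries moved the intermediate CpGs' difference to 2.11 points in Div5, 0.472 in Div8-, both of the opposite sign to before, -0.67 in Div8+ and -1.14 between Div8+ and Div8-. Counting each gene once gave -3.55 in Div8+ and -1.44 between the Div8 fractions, and summed reads -2.11 in Div8+. For methylated CpGs, Div8+ minus Div0 was -9.41 with at least 20 reads and -10.7 in the less evenly covered CpGs (an alternative chosen after seeing the data), and Div8+ minus Div8- was -5.42 with summed reads, -5.07 with a 90% class limit, -5.17 with at least 20 reads and -5.02 with each gene once. Member CpGs lower numbered 6, 0 and 0 in Div8- and 162, 12 and 17 in Div8+ with a 10 point limit, limma and at least 20 reads. Over all CpGs tested there (760348, or 246502 with at least 20 reads) the counts were 9114, 432 and 2199 in Div8-. In Div8+ they were 111216, 15867 and 12182. The 10 point limit also called 3 higher in Div8+ (630 of all CpGs), and limma 0 lower between the Div8 fractions (29 of all CpGs). Methylated CpGs lower in Div8+ were 141, 12 and 11 under those settings. Of the member CpGs, 17 of 17, 12 of 12 and 9 of 9 called with 20 reads, with limma and without the Div0 library of host 197 were among the 76. With a 5 point limit, 5, 13 and 5 of the 31 members were lower in Div8-, in Div8+ and between them. Of all 16816 genes 2578, 9635 and 3402 were. Summed reads gave 1 member in Div8- (954 of 16816 genes) and CpGs within 5 kb gave 1 in Div8+ (1036 of 13227 genes). With 20 reads 1 was lower between the Div8 fractions (177 of 11776 genes). The cause was not tested where fewer CpGs do not give it.

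For class means a whole host was left out, so each range gives the differences of the 2 single hosts. They were -1.998 to 0.232, -3.40 to -1.48, -3.03 to -2.28 and -0.805 to 0.361 points for intermediate CpGs in the 4 contrasts. For methylated CpGs they were -1.82 to -1.45, -4.97 to -4.33, -10.2 to -9.65 and -5.32 to -5.24. Counts were taken leaving out 1 library at a time. Member CpGs lower numbered 0 to 0, 0 to 5, 9 to 76 and 1 to 7, those higher in Div8+ 0 to 1, methylated ones lower in Div8+ 5 to 57, intermediate ones 0 to 0, and genes lower 0 to 0, 0 to 1, 3 to 5 and 0 to 2. With the host as a block for the pairing, 0, 1, 74 and 6 member CpGs and 3 genes in Div8+ were lower, and the block changed no other call of a comparison. With 2 hosts and a median of 20 to 30 reads per CpG in most libraries of host 196, single CpGs are measured coarsely, and a smaller difference than 20 points at 1 CpG is not called here.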

Other observations

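The second deposited table added 1578 member CpGs, of which 893 had at least 5 reads in every library. Among these, 100 were intermediate in Div0, in 19 members, and averaged 49.02% in Div0 and 45.9% in Div8+, while all 9925 further intermediate CpGs differed by -10.7 points. The 383 further methylated member CpGs went from 95.5% to 84.9%.

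The X chromosome of these female mice, where 1 copy is inactive, offers a second set of intermediate levels. Its 116 intermediate CpGs averaged 51.7% in Div0, 47.2% in Div8- and 42.0% in Div8+, a difference of -9.79 ± 1.06 points in Div8+ (SD, n = 2 hosts), and have no test.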
